A study of Homo sapiens with 24 samples.

Results

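HCT116 cells, an established human colorectal cancer cell line, were treated for 72 h with the prodrug G669043 at 150 nM or with azacytidine (Aza) at 150 nM, and their gene expression was measured on Affymetrix HG-U133 Plus 2.0 arrays. The comparison described here set the 2 G669043 arrays at 150 nM against the 2 Aza arrays at the same dose, 4 arrays of 24 in the series, chosen by compound and dose in the sample titles. Further arrays of the same line and time gave context: 2 with G669043 at 1500 nM, 2 with Aza at 1500 nM and 4 with the solvent DMSO alone. The other arrays of the series were treated with DAC (120 or 5000 nM), the ester prodrug G668684 (150 or 7000 nM) or the phos prodrug G669071 (a lower or higher dose). They entered no comparison, only the choice of probe sets, the spread shared by all groups and the principal components. All cells grew in RPMI1640 medium with 5% FBS, and all received DMSO as the solvent. The sample labels call G669043 a prodrug, name its arrays with Aza as a prefix and give no structure, so how it relates to Aza is not settled here. They do not say whether replicates came from separate cultures, so every p-value measures the spread between arrays, which may be technical.

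Azacytidine is a ribonucleoside analogue of cytidine. It is incorporated into RNA and, after reduction to the deoxynucleotide, into DNA, where it traps DNA methyltransferases, so that cytosine methylation is lost over rounds of replication. In colorectal cancer cells such agents are known to reactivate genes silenced by promoter methylation, among them germline genes of the cancer-testis class. A prodrug carries the active compound in a form that the cell or the body converts.

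All 4 arrays at 150 nM gave log2 intensity medians between 6.46 and 6.52, and the 2 arrays of each treatment correlated at 0.997 with G669043 and 0.998 with Aza over 18055 genes, against 0.995 to 0.996 between the compounds. Levels are log2 intensities throughout, differences are log2 ratios, and a gene was called where limma's adjusted p was under 0.05. The epithelial genes EPCAM, KRT8, KRT18 and KRT19 had mean levels of 12.07 or more in the 150 nM and DMSO groups. In the same groups CDH1 had means from 10.2 to 10.4, CLDN4 from 8.58 to 8.83 and CLDN3 from 7.57 to 7.68. The intestinal markers CDH17, VIL1, LGALS4 and CEACAM5 had means from 6.64 to 7.44. Means of the keratinocyte, fibroblast, blood and neuron markers tested ran from 5.39 (NEFL) to 12.83 (TUBB3). The intestinal levels therefore cannot be told from those of markers of other lineages. None of the keratinocyte, fibroblast, blood or neuron markers tested was called between the compounds. The 4 DMSO arrays stood apart in pairs: on the second principal component of all 24 arrays, replicates 1 and 2 lay at -13.6 and -11.1, and replicates 3 and 4 at 18.2 and 12.8. Both G669043 arrays at 150 nM, at 16.5 and 14.1, lay beside DMSO replicates 3 and 4, while both Aza arrays, at -1.7 and 2.4, lay between the DMSO pairs. The first component did not order the arrays by dose alone. DAC at 120 nM lay at 13.9 and 15.2 on it, Aza at 1500 nM at -7.8 and -8, and G669043 at 1500 nM at -7.6 and -8.4. G669043 at 150 nM stood at -27.3 on both arrays, Aza at 150 nM at -21.5 and -21.6, and DMSO between -29.2 and -26.5. The labels name no batch, and the part of this split in the results below was not tested beyond the alternatives given.

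**Figure D1:**
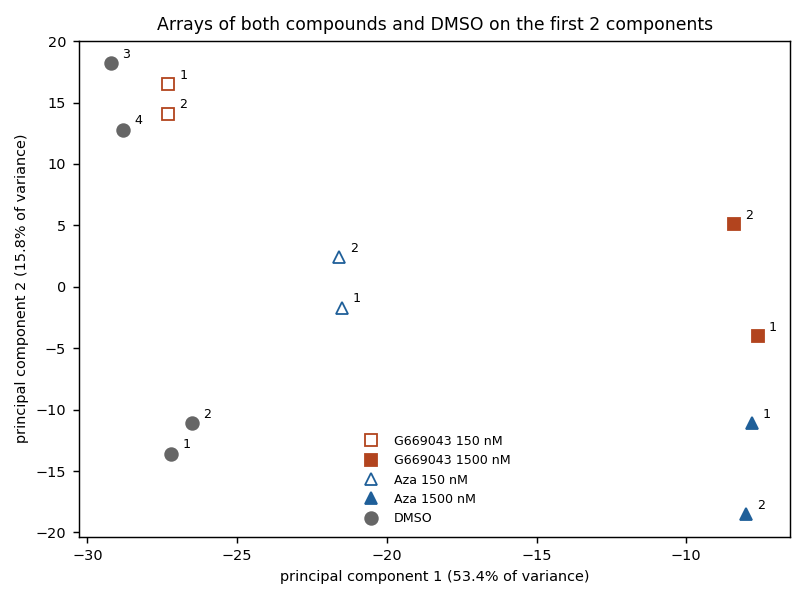
Arrays of both compounds and of DMSO on the first 2 principal components of all 24 arrays (18055 genes, axes in log2 units). Open symbols are 150 nM and filled symbols 1500 nM or DMSO, with replicate numbers beside them. The 2 G669043 arrays at 150 nM lie among the DMSO arrays on component 1, at -27.3, and the 2 Aza arrays at -21.5 and -21.6.

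At 150 nM the compounds differed in 12 genes. Expression was lower with G669043 than with Aza for TKTL1, GJA1, DHRS2, VIM, LXN, PRF1, HCLS1, AQP3, GCHFR and SGK1, and higher for ANXA10 and DDIT4, and 3 of the differences were at least 2-fold. The 10 lower genes were 0.0554% of 18055 tested and the 2 higher genes 0.0111%. A difference at an unadjusted p under 0.05 was found for 1847 genes. Adjusting over both matched doses together, as the pair of dose comparisons made here, gave 39 called genes at 150 nM, 15 higher and 24 lower. The count rested on which arrays set the spread: it was 1846 with the 4 arrays at 150 nM alone and 8 with the 12 arrays of these compounds and DMSO. It was 6 and 5 without Aza replicate 1 and 2, so these arrays each moved it by more than 1.5 times. In an interval of 95%, the median gene's difference was known to within 0.239 either way.

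TKTL1, a transketolase-like gene on the X chromosome that is grouped with the cancer-testis genes, had the largest difference among genes with a symbol. Its level was 5.54 and 5.18 with G669043, 7.13 and 6.73 with Aza, and 5.33, 4.7, 5.54 and 5.38 with DMSO. Both G669043 arrays lay within the DMSO range, and both Aza arrays lay above every other array of the 3 groups. The difference was -1.57 ± 0.18 (SE, adjusted p = 0.00028), a level 2.97 times as high with Aza, although its second probe set differed by only -0.02.

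VIM encodes vimentin, the intermediate filament of mesenchymal cells, and its promoter is often methylated in colorectal cancer. Its level was 8.11 and 8.02 with G669043, 9.07 and 8.99 with Aza, and between 7.83 and 8.1 with DMSO. Both Aza arrays lay above all DMSO arrays while those of G669043 overlapped them, and the difference between the compounds was -0.97 ± 0.08 (SE, adjusted p = 4e-06). DHRS2, a short-chain dehydrogenase/reductase, had levels of 10.09 and 9.79 with G669043, 11.19 and 11.27 with Aza, and 9.47 to 9.81 with DMSO. The groups of the compounds did not overlap, and DHRS2 differed by -1.29 ± 0.11 (SE, adjusted p = 4e-06). PRF1, the gene of the pore-forming protein perforin, had levels of 8.46 and 8.33 with G669043, 9.09 and 9.19 with Aza, and 7.93 to 8.17 with DMSO. Here the G669043 arrays also lay above all DMSO arrays, with Aza higher again, a difference of -0.74 ± 0.09 (SE, adjusted p = 0.00032). ANXA10, an annexin of the gastric epithelium, went the other way, with 9.61 and 9.63 for G669043, 9 and 8.98 for Aza, and 9.75 to 9.95 for DMSO. G669043 lay just under the solvent and Aza well under it, so that ANXA10 was higher with G669043 by 0.63 ± 0.08 (SE, adjusted p = 0.00043). TKTL1, VIM, DHRS2, PRF1 and ANXA10 were called in each of the alternatives in which they were tested. The size of the TKTL1 difference was less stable than its call, and ran from -1.77 to -0.79 over these alternatives.

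The upstream promoter bases of 4 of these genes are shown because azacytidine is known to lower methylation of cytosine before guanine, and because the genes differ widely in how many such pairs they hold. Each is the 250 bases before the RefSeq start on GRCh38.p14, plus strand, with CG in capitals; CG reads alike on both strands and matches cannot overlap. TKTL1 lies at chrX:154295545-154295794, VIM at chr10:17227991-17228240, DHRS2 at chr14:23629865-23630114 and ANXA10 at chr4:168092287-168092536.
TKTL1: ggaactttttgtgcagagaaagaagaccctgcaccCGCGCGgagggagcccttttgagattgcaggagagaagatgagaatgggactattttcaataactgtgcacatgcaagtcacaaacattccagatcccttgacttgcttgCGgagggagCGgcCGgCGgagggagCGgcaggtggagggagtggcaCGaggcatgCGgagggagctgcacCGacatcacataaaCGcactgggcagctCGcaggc
VIM: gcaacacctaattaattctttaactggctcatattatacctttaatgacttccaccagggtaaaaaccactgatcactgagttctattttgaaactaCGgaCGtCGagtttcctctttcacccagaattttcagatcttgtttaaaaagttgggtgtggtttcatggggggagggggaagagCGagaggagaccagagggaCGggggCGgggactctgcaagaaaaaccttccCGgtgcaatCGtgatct
DHRS2: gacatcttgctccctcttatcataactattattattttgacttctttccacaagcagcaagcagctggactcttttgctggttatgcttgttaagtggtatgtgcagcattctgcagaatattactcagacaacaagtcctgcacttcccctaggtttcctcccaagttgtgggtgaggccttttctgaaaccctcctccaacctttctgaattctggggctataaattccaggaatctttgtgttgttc
ANXA10: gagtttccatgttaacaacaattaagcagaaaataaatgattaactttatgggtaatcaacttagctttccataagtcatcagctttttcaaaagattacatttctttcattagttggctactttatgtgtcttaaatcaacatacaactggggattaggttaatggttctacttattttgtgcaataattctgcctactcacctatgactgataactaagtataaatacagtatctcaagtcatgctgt
The printed stretch holds 13 CG pairs in TKTL1, 8 in VIM, and 0 in DHRS2 and ANXA10. Over the whole window of 300 bases, from 250 before the start to 50 after it, TKTL1 holds 18 and VIM 10, counts reached by 63.8% and 76.2% of the promoters of all tested genes. DHRS2 and ANXA10 hold 0, as do 1.37% of them. Among the 10 genes lower with G669043 the count per window ran from 0 to 35 with a median of 9, against a median of 23 over the 14136 tested genes with a promoter in the table. The median was 14 over the 44 genes with a promoter among the 54 that both compounds raised at least 2-fold at 1500 nM. That set holds 7 of the 10 genes, so a lower count is not particular to them. Over all genes that both compounds raised at 1500 nM the median was 26. These counts describe letters only, since no methylation was measured.

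The 7 other called genes had smaller differences or calls that depended on single arrays. GJA1, the gap junction protein connexin 43, had levels of 3.61 and 3.65 with G669043, 4.84 and 5.09 with Aza, and 3.39 to 3.91 with DMSO. Only 1 of these values passed the level of 5 used as the low-value filter, so that its difference of -1.34 ± 0.17 (SE, adjusted p = 0.00093) has no settled size. It was not called without Aza replicate 2 (adjusted p = 0.068). LXN, a carboxypeptidase inhibitor, had 5.19 and 4.84 with G669043, 5.93 and 5.91 with Aza, and 5.35 to 5.84 with DMSO. Of the 12 genes it was the 1 called lower with G669043 than with DMSO, at -0.56 (adjusted p = 0.045), and it differed between the compounds by -0.91 ± 0.15 (SE, adjusted p = 0.013).

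AQP3, a channel for water and glycerol, had levels of 8.59 and 8.46 with G669043, 9.11 and 9.17 with Aza, and 7.98 to 8.23 with DMSO. Both compounds raised AQP3 above the solvent, by 0.46 for G669043 (adjusted p = 0.027) and by 1.07 for Aza (adjusted p = 1.1e-06), and they differed by -0.61 ± 0.11 (SE, adjusted p = 0.027). SGK1, a kinase induced by serum and glucocorticoids, had 7.45 and 7.41 with G669043, 7.96 and 8.07 with Aza, and 7.08 to 7.17 with DMSO. Its G669043 arrays lay between the solvent and Aza, and the compounds differed by -0.59 ± 0.1 (SE, adjusted p = 0.014). HCLS1, a cortactin relative of blood cells, had 5.95 and 5.82 with G669043, 6.64 and 6.55 with Aza, and 5.83 to 6.19 with DMSO, a difference of -0.71 ± 0.13 (SE, adjusted p = 0.034). GCHFR, the feedback regulator of GTP cyclohydrolase, had 7.32 and 6.86 with G669043, 7.62 and 7.76 with Aza, and 6.95 to 7.06 with DMSO. Its G669043 arrays fell on both sides of the solvent, and the compounds differed by -0.6 ± 0.11 (SE, adjusted p = 0.034).

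DDIT4, a stress-induced inhibitor of mTORC1, had levels of 11.41 and 11.19 with G669043, 10.47 and 10.48 with Aza, and 11.07 to 11.6 with DMSO. Only Aza stood below the solvent, and DDIT4 was higher with G669043 than with Aza by 0.82 ± 0.13 (SE, adjusted p = 0.0086). Leaving out single arrays at 150 nM ended these calls at highest adjusted p-values of 0.19 for DDIT4, 0.45 each for LXN, HCLS1 and AQP3, 0.64 for GCHFR and 0.34 for SGK1. HCLS1, AQP3 and SGK1 lost the call without any 1 of the 4 arrays. LXN and GCHFR lost it without G669043 replicate 2 or either Aza array, and DDIT4 without G669043 replicate 1 or either Aza array; without G669043 replicate 2, GCHFR's difference was -0.37. DDIT4, LXN, HCLS1, AQP3 and GCHFR were also not called with the 12 arrays of these compounds and DMSO alone, HCLS1, AQP3 and GCHFR after median centring, and LXN, HCLS1 and GCHFR after repeated quantile normalization. With probe sets averaged AQP3 was at -0.4 (adjusted p = 0.077), its other probe sets both differing by -0.3, and HCLS1 missed the threshold on log2(value + 16) (adjusted p = 0.061).

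**Figure D2:**
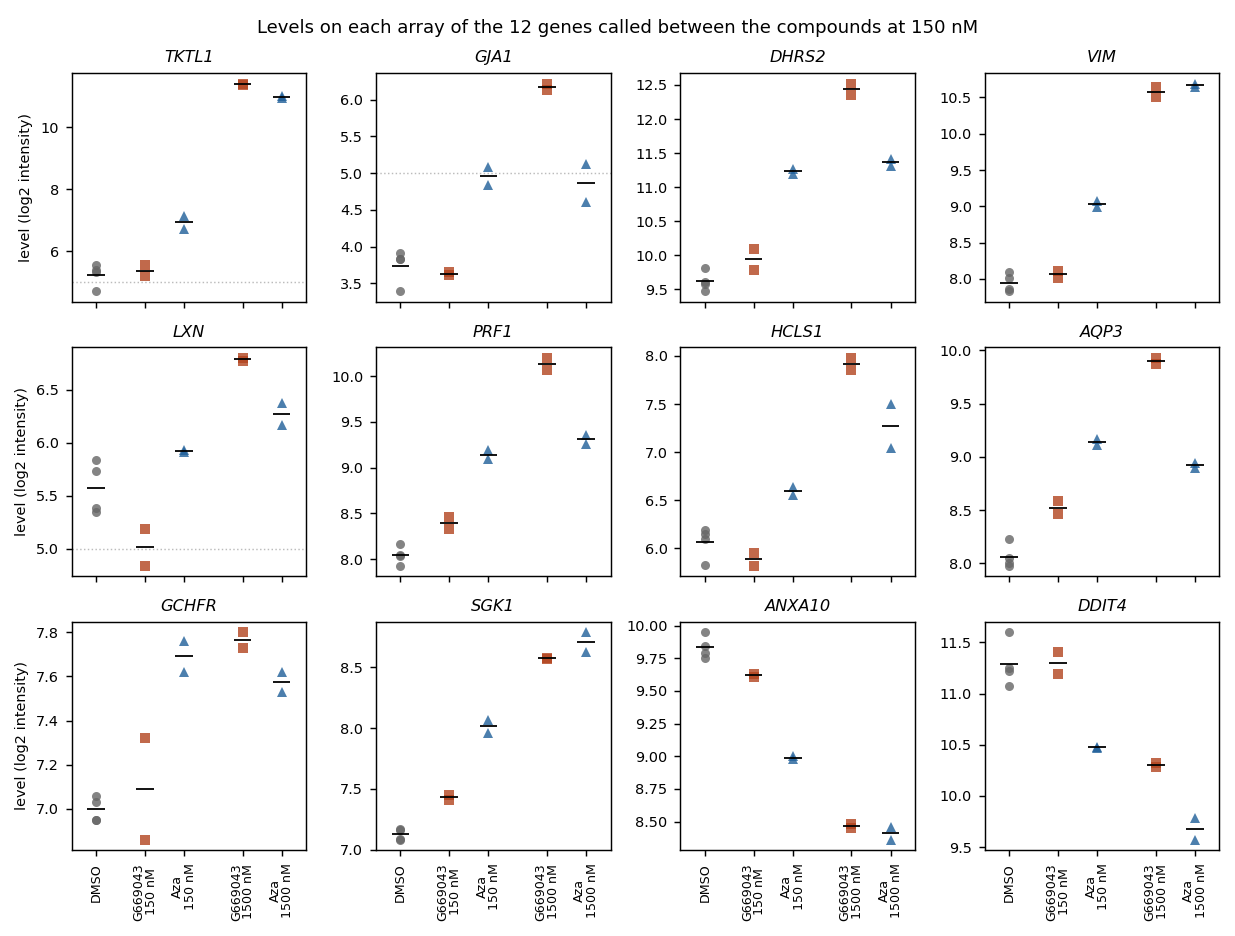
Levels (log2 intensity) of the 12 called genes on each array, with DMSO at left (grey circles), then 150 nM and 1500 nM, and G669043 (squares) left of Aza (triangles) at each dose. Bars are group means (n = 2, DMSO n = 4), and the dotted line is the filter level of 5. At 150 nM the 2 arrays of each compound do not overlap for any of the 12 genes, which were called from these arrays; G669043 lay below Aza in this way for 24.8% of all genes and above it for 30.4%.

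**Figure D3:**
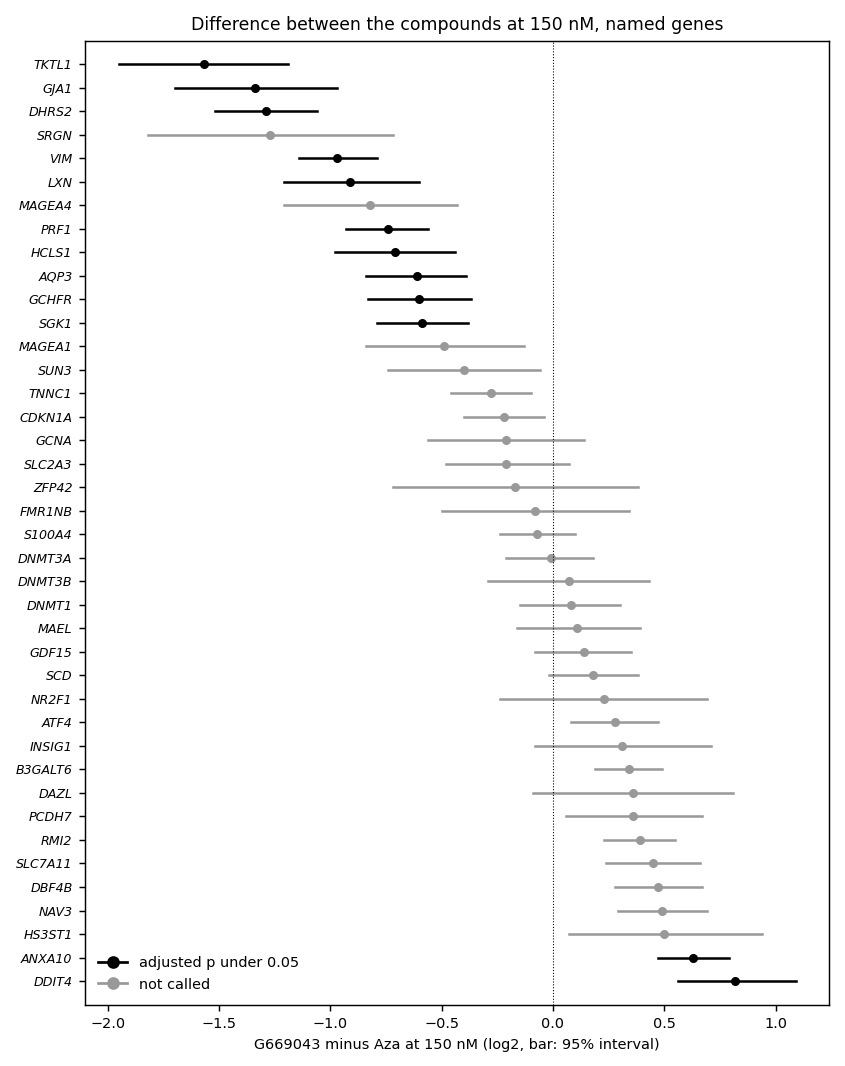
Difference between G669043 and Aza at 150 nM (log2) for the named genes, with limma's 95% intervals. Black marks the 12 called genes, from -1.57 for TKTL1 to 0.82 for DDIT4, and grey the others.

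Each compound was also set against the same 4 DMSO arrays, so these results share their controls. G669043 at 150 nM gave 128 genes called higher (0.709%) and 29 called lower (0.161%), and Aza gave 186 called higher (1.03%) and 83 called lower (0.46%). No gene called with G669043 changed at least 2-fold, against 11 with Aza. The G669043 count was 3 without its replicate 2, 7 without its replicate 1, 66 without either Aza array, 49 without DMSO replicate 1 and 961 without DMSO replicate 3, and the Aza count was 56 and 63 without Aza replicate 1 and 2. Against DMSO replicates 1 and 2 the counts were 5084 for G669043 and 547 for Aza, and against replicates 3 and 4 they were 111 for G669043 and 1270 for Aza. The order of the compounds in these counts therefore turned with the DMSO pair. Of the 12 genes, 3 were called with G669043 against DMSO and 11 with Aza. Both G669043 arrays lay above every DMSO array for 3 of the 10 lower genes and both Aza arrays for all 10; over all genes this held for 12.2% with G669043 and 9.36% with Aza. The 12 genes were picked with these same 150 nM arrays, so these counts are a description.

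Genes that both compounds changed at 1500 nM were chosen by contrasts of the 1500 nM and DMSO arrays, to which the 150 nM arrays gave only part of the pooled spread. Without single 150 nM arrays the raised set held 640 to 666 genes and the lowered set 393 to 409. Both raised 706 genes (3.91%) and both lowered 444 (2.46%) against DMSO, and all 12 called genes lay in these sets, which together hold 6.37% of the genes tested. The 10 lower genes were in the raised set and the 2 higher genes in the lowered set. The share of called genes that lay in these same sets depended on the arrays in the fit. With the DMSO pairs as separate groups it was 33 of 72, and with the 4 arrays at 150 nM alone 209 of 1846. It was 26 of 48 against DMSO replicates 1 and 2, and 27 of 44 against replicates 3 and 4. With the 12 arrays of these compounds and DMSO it was 8 of 8. Of the 54 genes that both compounds raised at least 2-fold at 1500 nM, 41 were lower with G669043 than with Aza at 150 nM, 7 of them called, and the median difference was -0.303 against 0.01 over all genes. Their arrays did not overlap, with G669043 below Aza, for 33 (61.1%), while 24.8% of all genes had such arrays. Against DMSO at 150 nM, with the same DMSO arrays that entered the choice, the median of these 54 genes was 0.123 with G669043 and 0.44 with Aza, and 8 and 21 of them were called higher. At 1500 nM the same genes had a median of 1.856 with G669043 and 1.5 with Aza against DMSO, which is the contrast that chose them.

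Over all 706 raised genes the compounds were closer. The median difference was -0.03, with 423 lower with G669043 and 281 higher, and its sign turned to 0.035 where the set was chosen against DMSO replicates 1 and 2 alone. Among the 444 lowered genes the median difference was 0.185, and 408 (91.9%) were higher with G669043, 340 of them (76.6%) with arrays that did not overlap, against 30.4% of all genes. The median was 0.107 after repeated quantile normalization. Against DMSO at 150 nM their median was -0.03 with G669043 and -0.214 with Aza. In these lowered genes DMSO replicates 3 and 4, beside which G669043 lay, also exceeded replicates 1 and 2, by a median of 0.12, and how much of the difference between the compounds goes with that split was not tested.

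**Figure D4:**
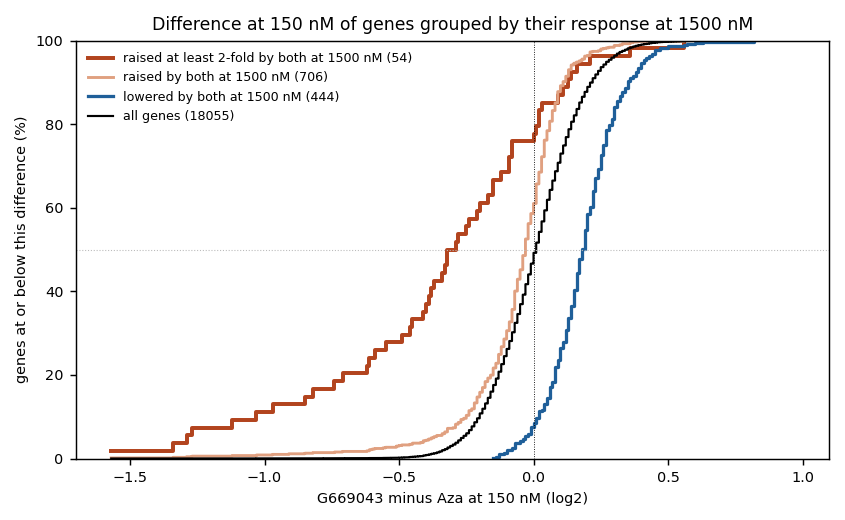
Cumulative share (%) of genes at or below each difference between G669043 and Aza at 150 nM (log2), for genes grouped by their response at 1500 nM. The curve of the 54 genes raised at least 2-fold by both lies left of all genes (median -0.303 against 0.01), and that of the 444 lowered genes lies right (median 0.185).

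Of the named germline genes that rose most at 1500 nM, none was called with G669043 at 150 nM against DMSO, and TKTL1 and MAGEA4 were called with Aza. GCNA, a germ cell nuclear protein, had 5.18 and 5.13 with G669043 and 5.54 and 5.19 with Aza at 150 nM, against 4.89 to 5.47 with DMSO. At 1500 nM it reached 10.27 and 10.41 with G669043 and 9.78 and 9.43 with Aza. Neither compound called it at 150 nM, and the interval of its difference ran from -0.56 to 0.14. MAEL, a piRNA pathway gene of the germline, differed by 0.11 (-0.16 to 0.39), and ZFP42, a pluripotency zinc finger gene, by -0.17 (-0.72 to 0.38). The other ZFP42 probe sets differed by -0.58 (means of 6.16 with G669043 and 6.74 with Aza) and by -0.16. MAGEA1, a cancer-testis antigen, differed by -0.49 (-0.84 to -0.13, adjusted p = 0.41). MAGEA1 stood 0.07 above DMSO with G669043 and 0.56 above it with Aza (0.25 to 0.86, adjusted p = 0.064). DAZL, which germ cells need to translate many of their mRNAs, and FMR1NB, a cancer-testis antigen, stayed below the level of 5 on all arrays at 150 nM. MAGEA4, another cancer-testis antigen, had 5.68 and 5.62 with G669043, 6.47 on both Aza arrays and 5.47 to 5.72 with DMSO. Aza raised MAGEA4 against DMSO by 0.85 (adjusted p = 0.008), whereas its value with G669043 was 0.03 and the difference between the compounds, -0.82, was not called (adjusted p = 0.15). SRGN, the proteoglycan serglycin, had 4.81 and 4.8 with G669043, 6.02 and 6.13 with Aza, and 3.59 to 4.9 with DMSO. Its DMSO arrays spread widely, and its difference of -1.27 was not called (adjusted p = 0.11) but passed without DMSO replicate 2 (adjusted p = 0.0033) or replicate 3 (adjusted p = 0.023).

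At 1500 nM the order of the compounds was the opposite for several of these genes. G669043 and Aza at 1500 nM differed in 384 genes (2.13%), 265 higher and 119 lower with G669043, and 6 of the 12 genes were among them. GJA1, DHRS2, PRF1, HCLS1 and AQP3 were called higher with G669043 at 1500 nM, the opposite of 150 nM, and DDIT4 was called higher at both doses. DHRS2, for example, had 12.36 and 12.52 with G669043 and 11.42 and 11.31 with Aza at 1500 nM, a difference of 1.07 ± 0.11 (SE, adjusted p = 2.7e-05). The interaction of compound and dose, which tests the change itself and shares the 150 nM arrays that picked the 12 genes, was called for 81 genes (0.449%) and for 10 of the 12. It was -2.36 for DHRS2, -2.65 for GJA1, -1.6 for AQP3, -1.57 for PRF1 and -1.36 for HCLS1.

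The dose steps within each compound were also compared, and they too share the 150 nM arrays that picked the 12 genes. All 12 genes were called between 1500 and 150 nM of G669043 (3.87% of all genes), and the 10 lower genes all rose with dose (1.69% called higher). With Aza 6 of the 12 were called (5.79% of all genes), and 4 of the 10 rose (2.41%): TKTL1, VIM, HCLS1 and SGK1. DHRS2 gained 2.5 on the log2 scale between 150 and 1500 nM of G669043 (adjusted p = 1e-11) and had a step of 0.14 with Aza (adjusted p = 0.58). AQP3 gained 1.37 with G669043 (adjusted p = 6.3e-08), and its Aza step was -0.22 (adjusted p = 0.28). TKTL1 gained 6.03 with G669043 and 4.05 with Aza, to levels of 11.36 and 11.41 with G669043 and 11.02 and 10.93 with Aza, where the compounds were not called apart (0.41, interval 0.03 to 0.79, adjusted p = 0.27). VIM likewise ended close, at 10.65 and 10.5 with G669043 and 10.69 and 10.64 with Aza, a difference of -0.09 (-0.26 to 0.08).

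**Figure D5:**
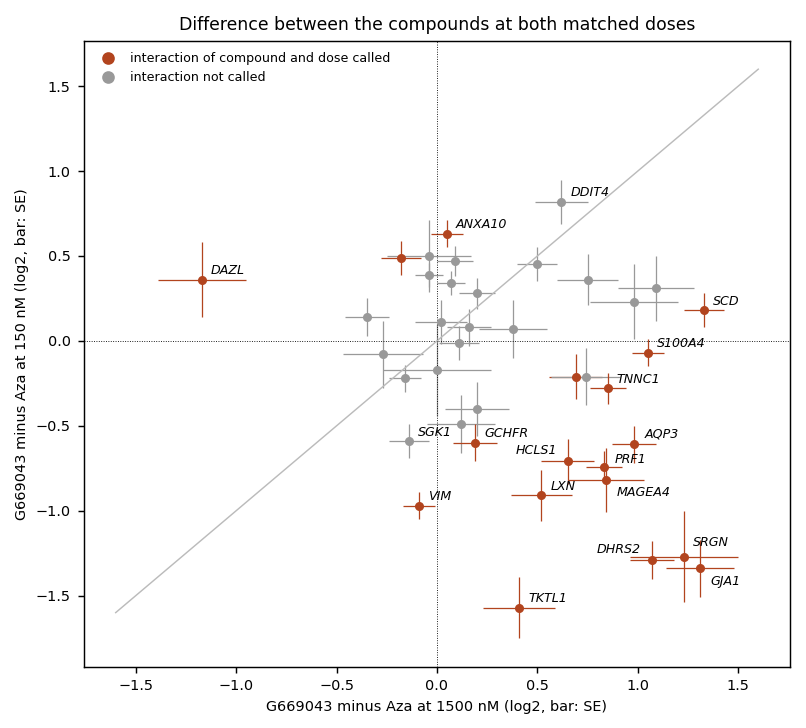
Difference between G669043 and Aza (log2) at 1500 nM on the x axis and at 150 nM on the y axis for the named genes, with SE bars and the line of equal differences. Genes at lower right, such as DHRS2 (1.07 at 1500 nM, -1.29 at 150 nM) and GJA1, were lower with G669043 at 150 nM and higher at 1500 nM.

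Below the threshold, the lowest p-values for genes higher with G669043 belonged to RMI2, DBF4B, NAV3 and B3GALT6. RMI2, a subunit of the complex that dissolves Holliday junctions, had 9.62 and 9.63 with G669043, 9.17 and 9.3 with Aza, and 9.49 to 9.59 with DMSO. It differed by 0.39 (0.23 to 0.55, adjusted p = 0.067), with G669043 just above the solvent and Aza below it. NAV3, a neuron navigator gene, differed by 0.49 (adjusted p = 0.069), B3GALT6, a galactosyltransferase of glycosaminoglycan synthesis, by 0.34 (adjusted p = 0.12), and DBF4B, a regulator of the CDC7 kinase, by 0.47 (adjusted p = 0.069) with 2 of its 4 probe sets in that direction. Among the genes both compounds lowered most at 1500 nM, besides ANXA10 and DDIT4, the differences were 0.36 for the protocadherin gene PCDH7 and 0.5 for the heparan sulfate sulfotransferase HS3ST1, the last in 1 of 3 probe sets, and neither was called. NR2F1, an orphan nuclear receptor, differed by 0.23 (-0.24 to 0.69) and INSIG1, a brake on sterol synthesis, by 0.31 (-0.08 to 0.71).

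Some genes responded to both compounds at 150 nM without a called difference. SUN3, a nuclear envelope protein of the germline, had 8.28 and 7.99 with G669043, 8.46 and 8.61 with Aza, and 7.02 to 7.5 with DMSO. Both compounds raised SUN3, and they differed by -0.4 (interval -0.74 to -0.06, adjusted p = 0.44). TNNC1, cardiac troponin C, had 7.48 and 7.49 with G669043, 7.69 and 7.84 with Aza, and 6.69 to 6.89 with DMSO, a difference of -0.28 (-0.46 to -0.1, adjusted p = 0.37). SLC2A3, the glucose transporter GLUT3, was raised by 0.78 with G669043 and 0.99 with Aza, and the difference was -0.21 (-0.48 to 0.07). Its other probe sets differed more between the compounds, by -0.63 and -0.6. GDF15, a stress-induced cytokine, was raised by 0.58 with G669043 and 0.45 with Aza, and differed by 0.14 (-0.08 to 0.35). CDKN1A, the cell cycle inhibitor p21 and a p53 target, was raised by Aza by 0.52 (adjusted p = 0.00047) and had 0.3 with G669043 (adjusted p = 0.06), with -0.22 between them (-0.4 to -0.04, adjusted p = 0.43). These intervals leave room for differences of this size, so the missing calls do not show that the compounds act alike.

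The DNA methyltransferases, whose proteins azacytidine traps, had close mRNA levels. DNMT1, the maintenance enzyme, had 10.58 and 10.53 with G669043, 10.52 and 10.44 with Aza, and 10.5 to 10.56 with DMSO. It differed by 0.08 (-0.15 to 0.3), DNMT3A by -0.01 (-0.21 to 0.18) and DNMT3B by 0.07 (-0.29 to 0.43), and none was called. In the wider list of 18 DNA methylation machinery genes, 16 lay above 0 and 2 below. HELLS was the highest at 0.61, and none was called. Protein, which the drug removes, was not measured.

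Among the gene lists, only 3 called genes appeared. Of 22 cancer-testis genes tested, TKTL1 was called lower and 15 lay below 0, with a median of -0.09. Of 39 genes known to be hypermethylated in colon cancer, VIM was called lower, and the median was -0.005. SPARC, a matrix protein of that list, had the largest difference in it, -1.12, without a call, and is named here after its value was seen. Of 39 genes of the integrated stress response, which ATF4 drives, DDIT4 was called higher, and the median was 0.15 with 32 above 0. After repeated quantile normalization that median was 0.073 with 25 above 0, and the list also differed by a median of 0.12 between DMSO replicates 3 and 4 and replicates 1 and 2. ATF4 itself differed by 0.28 (0.08 to 0.47, adjusted p = 0.39), and SLC7A11, the cystine transporter it induces, by 0.45 (0.24 to 0.66, adjusted p = 0.12).

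No other list had a called gene. The 40 interferon and RNA-sensing genes had a median of -0.025, the 31 germ cell genes -0.07, the 51 p53 targets 0.03, and the 18 histone genes -0.068. The 32 genes of nucleoside uptake and metabolism, which handle cytidine analogues, had a median of 0.043 with 20 above 0, and the 26 esterases, enzymes that cleave many prodrugs, 0.005 with 14 above 0. The 25 cholesterol and fatty acid genes had a median of 0.08, although 14 of them were called higher with G669043 than with Aza at 1500 nM, as were 1.47% of all genes. SCD, the stearoyl-CoA desaturase, differed by 0.18 (-0.02 to 0.38) at 150 nM and by 1.33 at 1500 nM, with an interaction of -1.15 (adjusted p = 0.00011). The S phase genes (52 tested) had a median of 0.148 with 47 above 0, and the G2 and mitosis genes (54 tested) 0.13 with 48 above 0, against 0.01 over all genes. The same lists differed between DMSO replicates 3 and 4 and replicates 1 and 2 by medians of 0.132 and 0.27, and the part of that split in the result was not tested. With the arrays quantile normalized again the medians were 0.051 for S phase and 0.036 for G2 and mitosis, both still above 0. Those of the p53, nucleoside, esterase and cholesterol lists turned negative, between -0.054 and -0.029, so their direction is not settled. The upward shift was not confined to the S phase and mitosis lists. The 37 ribosome biogenesis genes had a median of 0.11 with 33 above 0, and the 18 DNA methylation machinery genes 0.102 with 16 above 0. After repeated quantile normalization these 2 medians were 0.012 and 0.02. Between the DMSO pairs the 2 lists differed by medians of 0.115 and 0.257. Over the 12654 genes kept with the filter at log2 of 7, the median difference was 0.035. None of these shifts has a settled size. In these bulk samples, fewer cells of a kind and less RNA per cell cannot be told apart.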

How the data were processed

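Gene expression was measured in HCT116 cells by Affymetrix HG-U133 Plus 2.0 array. Per the submitters' processing notes, the authors normalized the arrays with RMA in Affymetrix Expression Console 1.1 and deposited linear intensity values; no source used here names a genome build. Their log2 values fall on steps of 0.01, and no detection calls were used. Arrays have no read depth, and precision is limited by 2 arrays a group.

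Log2 intensities of 54675 probe sets were used. The platform table gave 41091 of them 1 symbol, 1801 several and no entry to 11721, and 62 were controls; 41037 matched RefSeq. Probe sets with log2 of 5 or more on at least 2 arrays were kept (35146), and the one with the highest mean stood for each of 18055 genes. A single limma 3.58.1 fit in R 4.3.3 over all 24 arrays and 11 groups (13 residual degrees of freedom) gave all contrasts, with Benjamini-Hochberg adjustment over all genes of a contrast and a two-sided threshold of 0.05. The code was tested on simulated data. Promoters came from RefSeq (GRCh38.p14) and were found for 14136 of the 18055 genes. Figures were drawn with matplotlib 3.10.9.

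The genes named were the called ones, those of lowest p filled up to 6 a direction, 23 anchor genes, called list members and the strongest responders at 1500 nM, of which 1 is not reported here. Members and lists were chosen with earlier results of these data known. Alternatives covered arrays in the fit, DMSO pairs, scaling, filters, probe sets, an actin covariate, a replicate block and leaving out arrays.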

Additional observations from a re-analysis of the deposited data

Results flagged for a closer look

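For 18 of 41 named genes the difference between the compounds changed with dose. The test was limma's interaction (150 nM difference minus 1500 nM difference, log2). Of these 18, 10 were among the 12 genes picked with the same 150 nM arrays, and the others were chosen with results of these data known. Over all 18055 genes the interaction was called for 0.449%, so 18 of 41 is not a rate for genes in general. The interaction was negative, with G669043 relatively lower at 150 nM, for GJA1 (-2.65), SRGN (-2.5), DHRS2 (-2.36), TKTL1 (-1.98), MAGEA4 (-1.66), AQP3 (-1.6), PRF1 (-1.57), LXN (-1.42), HCLS1 (-1.36), SCD (-1.15), TNNC1 (-1.13), S100A4 (-1.12), SLC2A3 (-0.9), VIM (-0.88) and GCHFR (-0.79). It was positive for DAZL (1.53), NAV3 (0.67) and ANXA10 (0.58). S100A4, a calcium-binding protein, differed by -0.07 at 150 nM and by 1.05 at 1500 nM, and DAZL was below the filter level of 5 at 150 nM. Over all genes, 68 of the 81 called interactions had opposite signs at the 2 doses. Signs were counted whether or not the difference at either dose was called. The interaction is the difference of the 2 differences, so its calls favour opposite signs, and the count is only a description.

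In 3 genes 1 of the 4 DMSO arrays stood far from the others: replicate 2 for GJA1 (a gap of 0.846 of the group's range), replicate 1 for S100A4 (0.882) and replicate 1 for FMR1NB (0.906). The DMSO arrays of 41 genes were tested in this way, and chance alone places about 1 group in 20 past this limit.

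Probe sets without a single gene symbol were outside the main comparison. Of 9280 tested separately, 8 were called between G669043 and Aza at 150 nM, 1 higher and 7 lower. Of the 8, 4 list several GAGE-family symbols, cancer-testis antigens of the X chromosome, and ran from -1.06 to -0.7. Their means were 5.55 to 6.1 with G669043, 6.49 to 6.84 with Aza and 5.27 to 6.28 with DMSO. Another lists MAGEA9 and MAGEA9B and had means of 6.93 with G669043, 8.11 with Aza and 7.51 with DMSO (-1.18, adjusted p = 1.9e-05). No single gene is named from a probe set that lists several, and the other 3 had no entry in the probe table. Of these, one had the largest difference of the 8 (-1.76, adjusted p = 1.9e-09), with means of 4.27 with G669043, 6.03 with Aza and 3.9 with DMSO. Another differed by -1.18 (adjusted p = 0.0011), and the last was higher with G669043 (0.74, adjusted p = 0.0036).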

How the results depend on the processing

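Another 22 settings, and 3 more chosen after seeing the data (the DMSO pairs taken alone and the 10 arrays without a block), changed counts of called genes. Settings that altered only other arrays in the fit, the DMSO groups, the intensity trend or the adjustment could not change a gene's difference at 150 nM. They therefore say nothing about how stable the differences are. The 12 genes called between G669043 and Aza at 150 nM (2 higher, 10 lower) became 1846 (1505 and 341) with the 4 arrays at 150 nM only, 72 (37 and 35) with the DMSO pairs as separate groups, and 39 (15 and 24) with both doses adjusted together. They became 48 (21 and 27) and 44 (18 and 26) with DMSO replicates 1 and 2 or 3 and 4 alone, and 1124 (848 and 276) with a replicate block on 10 arrays, against 1135 (844 and 291) on those arrays without it. Only 1 gene was called higher with the 12 arrays of these compounds and DMSO, and only 1 without the _x_at and _s_at probe sets. Leaving out 1 array gave 5 to 18 called, 1 to 4 higher and 4 to 14 lower. Deviations of same-numbered replicates of G669043 and Aza at 150 nM correlated at 0.016, so the numbers were not taken as pairs, and the replicate block itself moved no count of calls by over 1.5 times.

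Against DMSO, G669043 had 157 called genes and Aza 269. The counts for G669043 and Aza were 13 and 103 with the 12 arrays, 1141 and 548 with separate DMSO pairs, 53 and 163 without the _x_at and _s_at probe sets, and 1224 and 588 with the actin covariate. They were 5955 and 1780 with the replicate block, 6115 and 1837 without it, and 5084 and 547 against DMSO replicates 1 and 2. G669043 had 46 after repeated quantile normalization and 77 with no intensity trend, and Aza had 1270 against DMSO replicates 3 and 4. Leaving out 1 array gave 3 to 961 for G669043 and 56 to 393 for Aza.

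The median difference of the genes raised at 1500 nM (-0.03) was 0.075 on 10 arrays with or without the block, 0.035 against DMSO replicates 1 and 2, -0.08 against replicates 3 and 4, -0.085 after quantile normalization and -0.06 without the _x_at and _s_at probe sets; leaving out 1 array gave -0.06 to -0.015. For the lowered genes (0.185) it was 0.107 after quantile normalization, 0.131 with probe sets averaged and 0.125 against DMSO replicates 1 and 2, with 0.145 to 0.22 over single arrays left out. For the genes raised at least 2-fold (-0.303) it was -0.203 on 10 arrays and against DMSO replicates 1 and 2, with -0.31 to -0.253 over single arrays left out. Signs turned for uncalled differences near 0: DNMT3A (0.01 after median centring, -0.05 to 0.02 over single arrays left out), DBF4B (-0.02), DNMT1 (-0.04) and DNMT3B (-0.02) after quantile normalization, DNMT3B (-0.01) with the actin covariate, GDF15 (-0.14) without the _x_at and _s_at probe sets, MAEL (-0.08 to 0.31 over single arrays left out, with -0.01 without Aza replicate 2) and FMR1NB (-0.23 to 0.08, with 0.07 without G669043 replicate 2). Fewer arrays and groups in a fit change the pooled spread by construction, and the cause of the other changes was not tested. No array has a detection call, so differences between levels under 5 have no settled size.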
